A study of Mus musculus with 6 samples.

Results

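The genes described here are 38 genes of the cell cycle and of DNA replication, read in RNA of the mouse hippocampus at postnatal day 14 (P14). They were chosen by name, as the rows of the deposited table whose gene symbol is on a written list. The rule itself uses no measured value, but the list was written with earlier results of these data known. All 38 were found among the 24935 genes of the table, and all 38 were among the 17778 genes with a mean normalized count of at least 10, which were tested. By the stage at which their products act they fall into 4 G1 cyclins, 15 genes of S phase and 19 genes of G2 and mitosis.

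The animals were C57BL/6 pups of both sexes, for which the labels name no engineered allele, kept with their dams from P2 to P14 either in room air or in normobaric hyperoxia (85% oxygen). RNA of the left hippocampus was sequenced from 3 pups kept in air and 3 kept in hyperoxia, with 1 library for each pup. The sex and the litter of each pup are not given in the labels. Libraries are named here by their group and the number of their column, which the labels do not tie to an animal, and every direction follows the group that the deposited column names. Each gene of the lists read below whose mRNA change was found in the study's own text has the opposite sign there. The sources used here do not settle which direction is right. No gene measured here checks the names independently of the exposure, so every higher or lower level in hyperoxia below holds only as far as the columns are named correctly. The normalized count of a gene is its number of reads in a library over that library's size factor.

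Depth was close to even, with 30384052 to 38746972 reads assigned to genes in a library. The left hippocampus was sequenced whole, and the marker lists of its principal neurons were read in every library, with a summed normalized count of 13305 to 20623 for 7 dentate granule cell genes and of 19338 to 26802 for 9 genes of CA1 and CA3 pyramidal cells. Hyperoxia library 3 stood apart in genes of the choroid plexus, the tissue that secretes cerebrospinal fluid. Ttr, a transport protein made there, was at 7454 in that library and at 166.9 to 887 in the other 5. Xist, the RNA that coats the inactive X chromosome, was high in 1 library of each group, so sex was not split along the exposure. In such bulk RNA, fewer dividing cells and less RNA per dividing cell cannot be told apart.

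A dividing cell passes from G1, in which D-type and E-type cyclins release E2F transcription factors from the retinoblastoma protein, into S phase, in which the MCM helicase unwinds DNA for copying, and then through G2 into mitosis, in which kinases, motor proteins and the anaphase-promoting complex part the chromosomes. Replication genes are typically switched on by E2F at the start of S phase, while mitotic genes are held back by the DREAM complex and peak later, through paired CCAAT and CHR elements in their promoters. In the hippocampus of a young mouse, dividing cells include the progenitors of the dentate gyrus, precursors of oligodendrocytes, astrocytes, endothelial cells and microglia, and most neurons have left the cycle.

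Promoter letters were read from the reference for both kinds of gene. For 28 of the 38 genes the RefSeq-based table of GRCm38.p6 held a window from 250 bases before to 50 bases after the annotated start, 29 windows in all. Each was searched on both strands for an E2F element (TTTCGCGC or TTTGGCGC), for the CHR element (TTTGAA) and for the CCAAT box (CCAAT), and the letters of no motif lie within those of another. Of all 32851 windows in the table, 0.813% held the E2F letters, 17.9% the CHR letters, 37.4% the CCAAT letters and 6.95% both CHR and CCAAT. Of the 13 windows of S phase genes, 38.5% held the E2F letters, 15.4% the CHR letters and 76.9% the CCAAT letters. Of the 15 windows of mitotic genes, 6.67% held the E2F letters, 73.3% the CHR letters and 93.3% the CCAAT letters, and 73.3% held both CHR and CCAAT. A match describes letters and is not a measured site of binding.

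**Figure D1:**
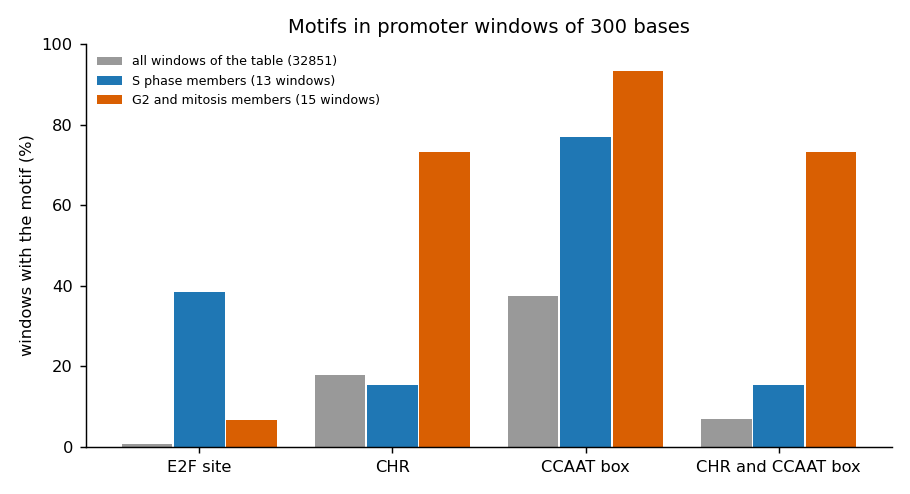
Share of 300-base promoter windows (vertical axis, percent) that hold the letters of each motif (horizontal axis), for all windows, S phase members and mitosis members. The E2F letters are found in 38.5% of the S phase windows and 6.67% of the mitosis windows, and the CHR letters in 15.4% and 73.3%.

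Among the genes with a window, the 3 mitotic and the 3 S phase genes with the smallest adjusted p in the comparison below are shown. Both promoter types can thus be read beside their values. The windows run 5′ to 3′ along the strand of the gene, and capitals mark a match to a motif on either strand. The window of Mki67 (chr7:135716330-135716629, minus strand) held 2 CHR and 3 CCAAT matches, and that of Top2a (chr11:99024140-99024439, minus strand) 2 CHR and 6 CCAAT matches.
Mki67: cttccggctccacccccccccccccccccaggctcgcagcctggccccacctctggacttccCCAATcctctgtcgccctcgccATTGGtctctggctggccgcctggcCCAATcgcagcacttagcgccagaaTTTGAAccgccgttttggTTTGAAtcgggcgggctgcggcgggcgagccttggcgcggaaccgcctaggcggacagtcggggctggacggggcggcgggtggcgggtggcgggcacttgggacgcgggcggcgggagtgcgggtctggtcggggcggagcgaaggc
Top2a: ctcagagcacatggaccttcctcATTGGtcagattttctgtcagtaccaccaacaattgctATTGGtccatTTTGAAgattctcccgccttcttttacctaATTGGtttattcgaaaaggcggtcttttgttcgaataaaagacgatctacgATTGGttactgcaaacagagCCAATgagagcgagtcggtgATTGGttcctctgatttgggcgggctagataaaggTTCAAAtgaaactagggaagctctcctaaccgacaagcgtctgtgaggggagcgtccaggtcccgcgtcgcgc
Cenpe: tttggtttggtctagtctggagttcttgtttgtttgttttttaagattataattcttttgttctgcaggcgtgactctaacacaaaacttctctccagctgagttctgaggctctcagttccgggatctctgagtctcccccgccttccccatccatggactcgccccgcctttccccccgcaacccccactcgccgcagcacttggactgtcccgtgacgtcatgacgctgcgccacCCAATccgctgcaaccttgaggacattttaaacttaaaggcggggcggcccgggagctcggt
The window of Cenpe (chr3:135212313-135212612, plus strand) held 1 CCAAT match and no CHR match. Among the S phase genes, the window of Mcm3 (chr1:20820263-20820562, minus strand) held 1 E2F and 3 CCAAT matches. That of Rrm2 (chr12:24708004-24708303, plus strand) held 1 CCAAT match, and that of Cdc6 (chr11:98907901-98908200, plus strand) held none of the letters searched.
Mcm3: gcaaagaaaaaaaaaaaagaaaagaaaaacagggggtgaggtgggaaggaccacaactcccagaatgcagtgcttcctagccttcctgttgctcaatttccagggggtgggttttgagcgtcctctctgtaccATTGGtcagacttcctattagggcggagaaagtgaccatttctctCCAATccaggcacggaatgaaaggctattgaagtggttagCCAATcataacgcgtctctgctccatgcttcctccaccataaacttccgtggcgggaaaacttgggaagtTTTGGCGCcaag
Rrm2: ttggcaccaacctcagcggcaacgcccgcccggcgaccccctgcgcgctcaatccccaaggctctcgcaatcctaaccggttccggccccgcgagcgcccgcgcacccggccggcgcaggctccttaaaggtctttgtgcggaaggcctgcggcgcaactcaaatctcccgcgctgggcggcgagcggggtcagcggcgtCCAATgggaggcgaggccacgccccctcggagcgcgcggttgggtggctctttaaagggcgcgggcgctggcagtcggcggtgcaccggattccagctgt
Cdc6: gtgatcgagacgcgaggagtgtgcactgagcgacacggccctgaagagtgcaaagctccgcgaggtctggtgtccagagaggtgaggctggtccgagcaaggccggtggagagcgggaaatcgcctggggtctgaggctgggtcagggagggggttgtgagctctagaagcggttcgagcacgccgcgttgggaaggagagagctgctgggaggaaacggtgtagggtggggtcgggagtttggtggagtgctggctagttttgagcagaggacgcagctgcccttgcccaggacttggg

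The first question was whether the RNA of the cycle as a whole differed between air and hyperoxia. Of the 38 members, 6 were called higher in hyperoxia (15.8%) and 0 lower, where called means an adjusted p under 0.05 in limma on log2 of the normalized count plus 1. The 6 genes, Mki67, Top2a, Cenpe, Birc5, Cdk1 and Cdc20, all act in G2 or mitosis. Across the 17778 genes tested, 30.5% were called, with 14.9% of the tested genes higher and 15.6% lower, so the share of members called higher was near that of all genes. At an unadjusted p under 0.05, 10 members were higher and 1 lower, and the count tests on recovered reads (edgeR and DESeq2) also called 0 members lower. In 14 of the 38 members every hyperoxia library lay above every air library, against 22.3% of all tested genes, and in 1 member every hyperoxia library lay below, against 23.8%. The median log2 fold change of the members was 0.20, with a range of −0.36 to 0.88, beside −0.007 for all genes tested.

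Split by stage, the called members all fell among the mitotic genes. The 19 mitotic members had a median log2 fold change of 0.51, 15 of them were above 0, and 6 (31.6%) were called, all higher, beside 14.9% of all tested genes called higher. The 15 members of S phase had a median of 0.02, with 8 above 0, and 0 were called by limma, edgeR or DESeq2, with 1 at an unadjusted p under 0.05 (Gins1). For the 4 G1 cyclins the median was 0.07, and 0 were called by the same 3 tools, with 1 at an unadjusted p under 0.05 (Ccne1). The difference between the stages was not itself tested.

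**Figure D2:**
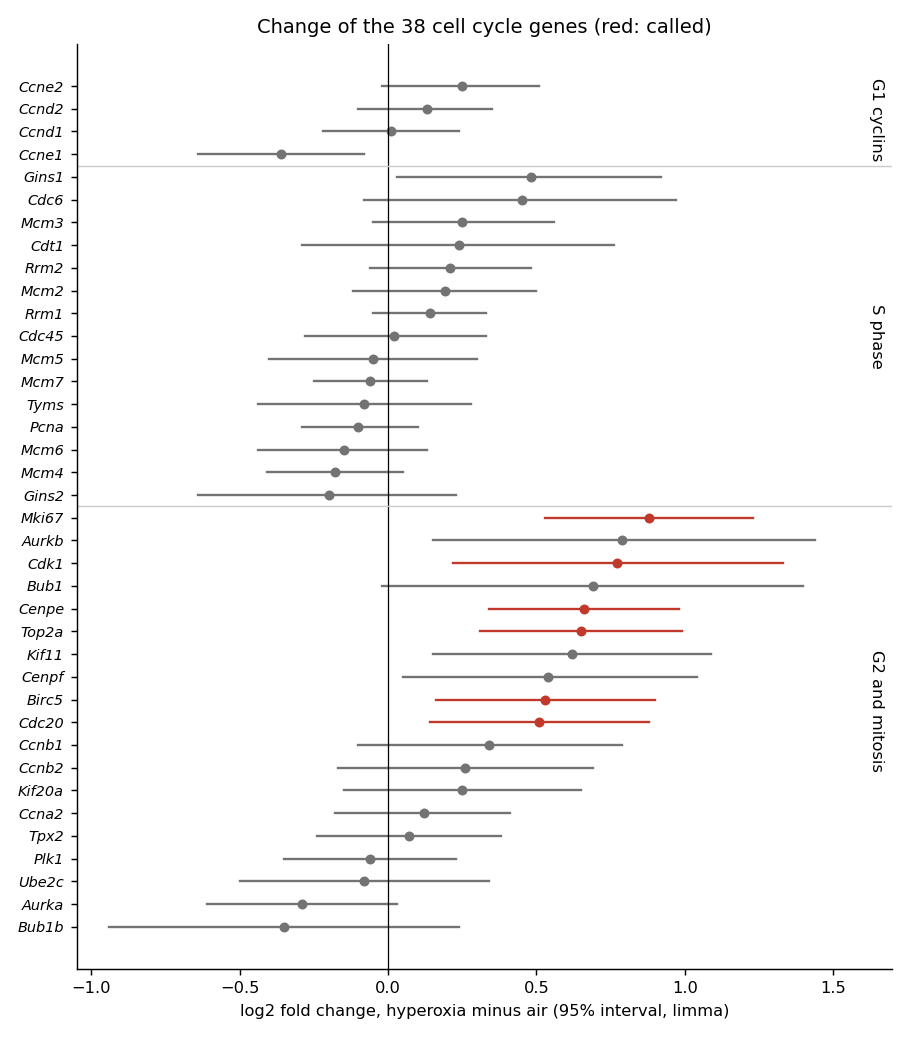
Log2 fold change of each of the 38 members, hyperoxia minus air (horizontal axis, log2 of normalized count plus 1), with 95% intervals from limma, grouped by stage. The mitotic genes run from −0.35 (Bub1b) to 0.88 (Mki67), and the S phase genes from −0.20 (Gins2) to 0.48 (Gins1).

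These counts changed when 1 library was left out. Each such fit also had fewer libraries and so less power, and a lost call cannot be laid to the library removed. Members called higher went from 6 to 3 without air library 1, 2 or 3 or without hyperoxia library 3, to 5 without hyperoxia library 1 and to 8 without hyperoxia library 2. Mki67 and Cenpe were called in each of these 6 fits. Without hyperoxia library 3 the median of the mitotic members was 0.32, with 14 of 19 above 0, and Mki67, Top2a and Cenpe were called higher. No S phase member was called with any 1 library left out.

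Mki67 (ENSMUSG00000031004.8, chr7:135689784-135716361, minus strand, GRCm38) encodes Ki-67, the coat of mitotic chromosomes that serves as a general marker of cycling cells. Its normalized counts were 329.6, 298.2 and 292.6 in the air libraries, in the order of their numbers, and 486.2, 495.9 and 742.2 in those of the hyperoxia group. The air libraries lay close together, every hyperoxia library was above them, and hyperoxia library 3 was far above the other two. The mean was 306.8 ± 20 in air and 574.8 ± 145 in hyperoxia (SD, n = 3 each), 1.87-fold higher. On the log2 scale it rose by 0.88 (standard error, SE, 0.16, adjusted p = 0.0036 by limma), and the call held under each of the 16 alternatives, with adjusted p from 2.0e-06 to 0.023. Without hyperoxia library 3 the change was 0.68. Mki67 had the CHR and CCAAT letters in the window shown above.

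Top2a (chr11:98992943-99024189, minus strand) encodes topoisomerase II alpha, which untangles sister chromatids before they part. It read 204.4, 213.7 and 237.2 in the air libraries and 288.2, 322.7 and 432.4 in the hyperoxia libraries. As for Mki67, the groups were apart and hyperoxia library 3 was the highest. From a mean of 218.4 ± 16.9 in air to 347.7 ± 75.3 in hyperoxia (SD, n = 3 each), it rose by 0.65 (SE 0.15, adjusted p = 0.011 by limma). The call was lost without air library 1 (limma adjusted p = 0.055, log2 fold change 0.60) and held under the other 15 alternatives, which spanned adjusted p from 7.1e-04. The gene Gm23451 lies over an exon of Top2a on the same strand.

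Cenpe and Cenpf encode large proteins of the outer kinetochore, where chromosomes are held by the spindle, and CENP-E is a motor that carries chromosomes to the middle of the spindle. Cenpe (chr3:135212537-135273611, plus strand) read 106.4, 109.9 and 104.7 in the air libraries and 145, 172.1 and 195 in the hyperoxia libraries. Its air libraries were the most alike of the 6 called genes, and the groups did not overlap. The mean went from 107 ± 2.64 (SD, n = 3) to 170.7 ± 25.0 (SD, n = 3), a log2 change of 0.66 (SE 0.14, adjusted p = 0.0081 by limma). It was called under 15 of 16 alternatives, and lost its call once the trend on GC content and transcript length was taken out of each library, where the change was 0.36 (adjusted p = 0.092). Cenpf read 146.9, 139.4 and 125.3 in air and 163.5, 164.2 and 298.2 in hyperoxia. Although its groups did not overlap either, most of the difference stood in hyperoxia library 3, and the change of 0.54 (SE 0.22, adjusted p = 0.088 by limma) did not pass, while DESeq2 called it (adjusted p = 0.035), as did limma without hyperoxia library 2 (adjusted p = 0.025).

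**Figure D3:**
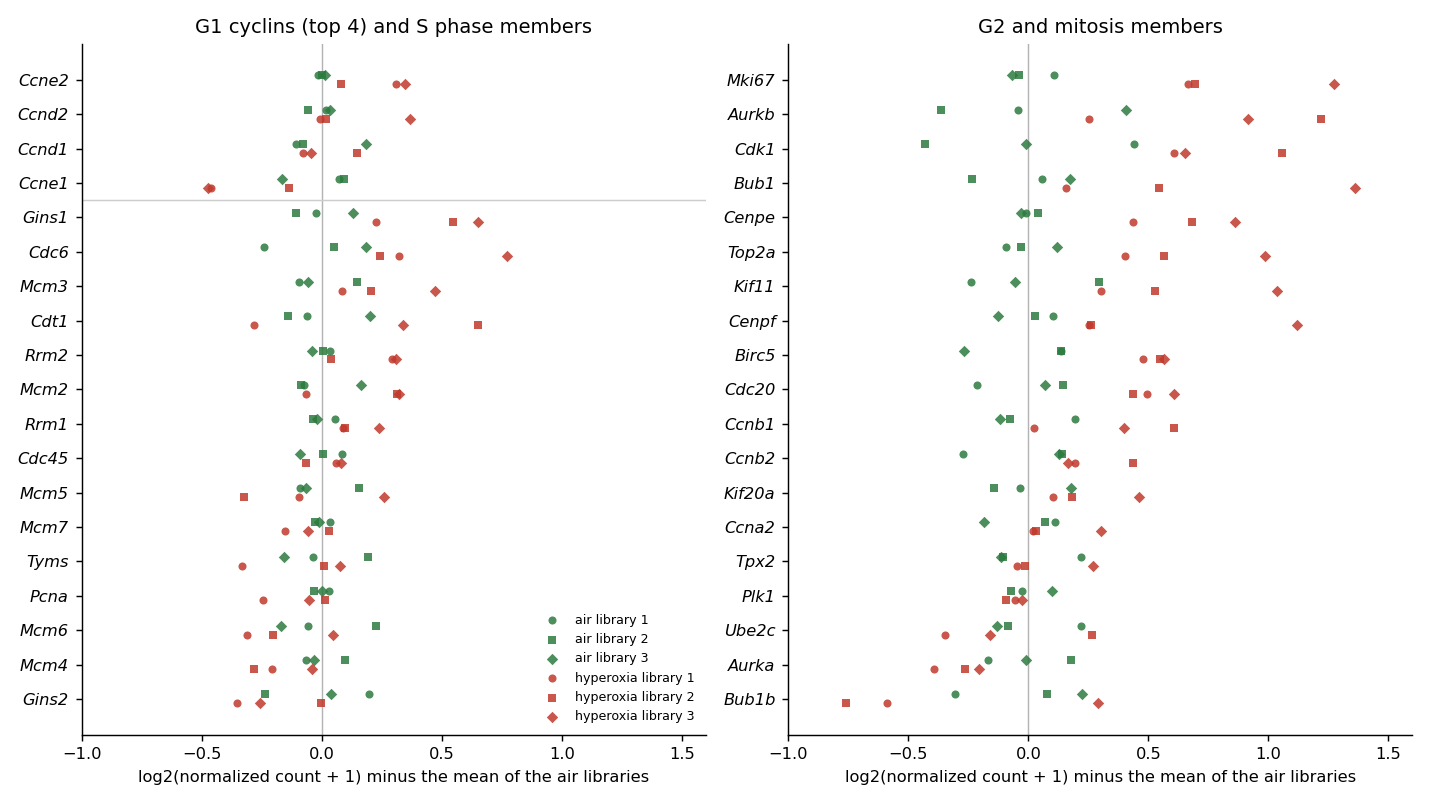
Normalized count of every member in each of the 6 libraries, relative to that gene's mean over the 3 air libraries and plotted on the log2 scale of normalized count plus 1 (horizontal axis), with 1 gene per line and 1 symbol per library. Mki67, Top2a and Cenpe are higher in each hyperoxia library than in any air library, and several mitotic genes are highest in hyperoxia library 3.

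The kinase that drives entry into mitosis and its partner cyclins were read at low levels. Cdk1 (chr10:69335146-69352938, minus strand) encodes that kinase, and read 56.5, 30.5 and 41.1 in air and 63.6, 87.2 and 65.6 in hyperoxia. The groups were apart, but by a gap smaller than the spread among the air libraries. Its mean was 42.7 ± 13.1 in air and 72.2 ± 13 in hyperoxia (SD, n = 3 each), and it rose by 0.77 (SE 0.25, adjusted p = 0.041 by limma). Of 16 alternatives 9 called it. Among the fits with 1 library left out, it was called only without air library 1 (adjusted p = 0.031) and not without air library 2 (0.15) or 3 (0.099) or hyperoxia library 1 (0.073), 2 (0.074) or 3 (0.052). The cyclins that bind this kinase in G2 and mitosis were not called. Ccnb1 read 67.8, 56 and 54.4 in air and 60.1, 90.6 and 78.2 in hyperoxia (log2 fold change 0.34, limma adjusted p = 0.22), and Ccnb2 43.3, 58 and 57.5 in air and 60.1, 71.3 and 58.9 in hyperoxia (0.26, 0.32). Ccna2, the A-type cyclin of S phase and G2, had a log2 fold change of 0.12 (limma adjusted p = 0.53, 95% interval −0.18 to 0.41). Pseudogene copies named for Ccnb1 and Ccnb2 are in the annotation, so reads of these genes could be shared with them.

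Of the genes for the destruction of mitotic proteins, Cdc20, the activator of the anaphase-promoting complex, rose, and Ube2c, the ubiquitin-conjugating enzyme of that complex, did not pass. Cdc20 (chr4:118432901-118437352, minus strand) read 53.7, 69.2 and 65.7 in air and 88.4, 84.9 and 95.6 in hyperoxia, with no overlap and little spread within the hyperoxia group. From 62.9 ± 8.14 in air to 89.6 ± 5.43 in hyperoxia (SD, n = 3 each), the log2 change was 0.51 (SE 0.16, adjusted p = 0.041 by limma). It was called under 8 of 16 alternatives, with adjusted p from 0.016 to 0.14. DESeq2 did not call it (adjusted p = 0.075), nor did limma under quantile normalization (0.054) or with no filter on low values (0.062). With 1 library left out it held without hyperoxia library 2 (0.033), and was lost without air library 1 (0.14), 2 (0.071) or 3 (0.081) and also without hyperoxia library 1 (0.10) or 3 (0.10). The exons of Cdc20 overlap those of Elovl1 on the other strand. Ube2c read 127.1, 102.8 and 99.6 in air and 85.7, 131.3 and 97.5 in hyperoxia, so the groups lay within one another (log2 fold change −0.08, 95% interval −0.50 to 0.34).

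The spindle checkpoint genes Bub1 and Bub1b had log2 fold changes of opposite sign, and neither was called. Bub1 encodes a kinase that recruits checkpoint proteins to kinetochores, and read 26.4, 21.4 and 28.7 in air and 28.3, 37.4 and 66.6 in hyperoxia (0.69, SE 0.32, adjusted p = 0.13 by limma). Bub1b encodes BubR1, a part of the complex that holds back CDC20, and read 112.1, 146.5 and 162.2 in air and 91.9, 81.5 and 169.9 in hyperoxia (−0.35, SE 0.26, adjusted p = 0.34 by limma). For both genes hyperoxia library 3 was the highest of all 6 libraries, and hyperoxia libraries 1 and 2 were the lowest of Bub1b. Without hyperoxia library 3, Bub1b was called lower, at −0.67 (limma adjusted p = 0.024).

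The mitotic kinases and their partners also differed among themselves. Birc5 (chr11:117849251-117855743, plus strand) encodes survivin, which works with Aurora B in the chromosomal passenger complex. It read 76.3, 76.3 and 57.5 in air and 97.2, 101.9 and 103.3 in hyperoxia, with the hyperoxia libraries close together and above the rest. The mean of 70 ± 10.9 in air stood against 100.8 ± 3.17 in hyperoxia (SD, n = 3 each), a log2 change of 0.53 (SE 0.16, adjusted p = 0.036 by limma). The call held under 8 of 16 alternatives. It was lost with DESeq2 (adjusted p = 0.057), and in limma under quantile normalization (0.051) or with no filter on low values (0.052). It held without hyperoxia library 2 (0.042) and was lost without air library 1 (0.064), 2 (0.067) or 3 (0.12) and also without hyperoxia library 1 (0.081) or 3 (0.076).

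Aurkb, the kinase of that complex, read 35.8, 28.5 and 49.3 in air and 44.2, 87.2 and 70.5 in hyperoxia, where library 1 lay within the air range (log2 fold change 0.79, SE 0.29, adjusted p = 0.064 by limma). It passed with DESeq2 (adjusted p = 0.045), after removal of the length and GC trend (0.031) and without hyperoxia library 1 (0.031). Aurka, the Aurora kinase of the spindle poles, was the 1 member with every hyperoxia library under every air library, with 114.9, 146.5 and 128.3 in air and 98.1, 107.6 and 112 in hyperoxia, but its change of −0.29 (SE 0.14, adjusted p = 0.16 by limma) did not pass. Tpx2, which activates Aurora A on the spindle, had a log2 fold change of 0.07 (limma adjusted p = 0.73). Plk1, a kinase used from the entry into mitosis to its end, read 109.2, 105.8 and 119.1 in air and 107, 104.2 and 109.1 in hyperoxia (log2 fold change −0.06, 95% interval −0.35 to 0.23). The libraries of Plk1 spanned a narrow range that both groups shared.

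Of the kinesins, Kif11 drives the spindle poles apart and Kif20a acts in cytokinesis. Kif11 read 84.8, 123.1 and 96.5 in air and 123.8, 144.9 and 206.6 in hyperoxia, and hyperoxia library 1 stood only just above air library 2. Its log2 fold change of 0.62 (standard error 0.21) gave a limma adjusted p of 0.05003, just outside the threshold, and 7 of 16 alternatives called it, edgeR (adjusted p = 0.047) and DESeq2 (0.024) among them, as did limma without hyperoxia library 1 (0.041) or 2 (0.035). Kif20a read 59.3, 55 and 68.8 in air and 65.4, 69.1 and 84 in hyperoxia, in overlapping groups (log2 fold change 0.25, limma adjusted p = 0.31).

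The S phase members had log2 fold changes from −0.20 to 0.48, and none passed in limma. Origins of replication are licensed by CDC6 and CDT1, which load the MCM2 to MCM7 ring onto DNA. Cdc6 read 27.3, 33.6 and 37 in air and 40.7, 38.5 and 56 in hyperoxia, with no overlap but a gap of few counts (log2 fold change 0.45, SE 0.23, adjusted p = 0.17 by limma). Cdt1 read 74.4, 70.2 and 89.3 in air and 63.6, 122.3 and 98.5 in hyperoxia (0.24, 0.47), with hyperoxia libraries both lowest and highest. The 6 subunits of the helicase had log2 fold changes on both sides of 0, with Mcm2 at 0.19 (limma adjusted p = 0.32), Mcm3 at 0.25 (0.19), Mcm4 at −0.18 (0.22), Mcm5 at −0.05 (0.82), Mcm6 at −0.15 (0.39) and Mcm7 at −0.06 (0.63). In each of the 6 the groups overlapped. The interval was narrowest for Mcm7, from −0.25 to 0.13, and the outermost ends were −0.44 for Mcm6 and 0.56 for Mcm3.

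CDC45 and the GINS complex join the MCM ring to form the working helicase. Gins1 read 37.7, 35.6 and 42.1 in air and 45.1, 56.6 and 60.8 in hyperoxia, all above the air libraries. Its log2 fold change of 0.48 (SE 0.20, adjusted p = 0.099 by limma) was the highest of the S phase members, and no alternative called it. Its partner Gins2 read 67.8, 49.9 and 60.6 in air and 46, 58.9 and 49.2 in hyperoxia (−0.20, limma adjusted p = 0.45), and Cdc45 read 104.5, 98.7 and 92.4 in air and 102.5, 94 and 104.2 in hyperoxia (0.02, limma adjusted p = 0.91). Both of these genes had overlapping groups.

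Pcna (chr2:132249162-132253314, minus strand) encodes the ring that clamps DNA polymerases to their template. Its protein was stained in the dentate gyrus of other pups of the study to count proliferating cells, and those counts were not analysed here. It read 928.6, 889.4 and 908.6 in air and 766.4, 917 and 875.4 in hyperoxia. Hyperoxia library 1 was the lowest, library 3 was just below the air range and library 2 lay within it. The mean was 908.8 ± 19.6 in air and 853 ± 77.8 in hyperoxia (SD, n = 3 each). With a log2 fold change of −0.10 (SE 0.09, adjusted p = 0.43 by limma) the 95% interval ran from −0.29 to 0.10, and so left out changes of the size fitted for Mki67 (0.88) or Top2a (0.65). Pseudogene copies named for Pcna are in the annotation.

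Rrm1 and Rrm2 encode the subunits of ribonucleotide reductase, which makes the building blocks of DNA, and Tyms encodes thymidylate synthase. Rrm1 read 585.8, 549.5 and 556.4 in air and 599.3, 602.3 and 665 in hyperoxia (log2 fold change 0.14, limma adjusted p = 0.24). Rrm2 read 176.1, 173 and 167.3 in air and 211.3, 176.6 and 213.3 in hyperoxia (0.21, limma adjusted p = 0.21). In both genes all hyperoxia libraries were above all air libraries, in Rrm2 by less than 1 count between hyperoxia library 2 and air library 1, and neither was called under any alternative. For Tyms the groups overlapped, with 120.5, 141.4 and 110.9 in air and 98.1, 124.5 and 130.3 in hyperoxia (−0.08, limma adjusted p = 0.73).

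The G1 cyclins included the most abundant member, Ccnd2. Ccnd2, a D-type cyclin used by neural progenitors, read 4646, 4409 and 4693 in air and 4562, 4646 and 5909 in hyperoxia, with hyperoxia library 3 above the rest (log2 fold change 0.13, limma adjusted p = 0.36). Ccnd1 read 819.3, 836.5 and 1003 in air and 835.3, 977.1 and 856.1 in hyperoxia, so its groups lay within one another (0.01, 0.96). The E-type cyclins, which start replication with CDK2, had log2 fold changes of opposite sign. Ccne1 read 422.8, 429.4 and 359.3 in air and 292.6, 366.8 and 289.6 in hyperoxia, and only hyperoxia library 2 reached into the air range (−0.36, SE 0.12, adjusted p = 0.056 by limma). It was called lower without hyperoxia library 2 (limma adjusted p = 0.0053) and under quantile normalization (0.046). Ccne2 read 162, 163.8 and 165.3 in air and 203.3, 173.2 and 208.5 in hyperoxia, above the air libraries in each, with a change of 0.25 (SE 0.12, adjusted p = 0.15 by limma) that passed only without hyperoxia library 2 (0.041).

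Set per length, as normalized count per kb of merged exons, the levels of the members spanned a wide range. Ccnd2 stood at 487 per kb in air and 536 in hyperoxia, and Pcna at 379 and 355. Of the helicase genes, Mcm7 was at 132 per kb in air and 126 in hyperoxia, and Mcm5 at 60.5 and 59.0. Of the called genes, Mki67 was at 30.5 per kb in air and 57.1 in hyperoxia, Top2a at 24.2 and 38.6, Cenpe at 12.4 and 19.8 and Cdk1 at 8.65 and 14.6. The lowest of the mitotic genes, Bub1, was at 5.86 per kb in air and 10.1 in hyperoxia. Counting error weighs more at this end, where a gene such as Bub1 had as few as 21 reads in a library.

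**Figure D4:**
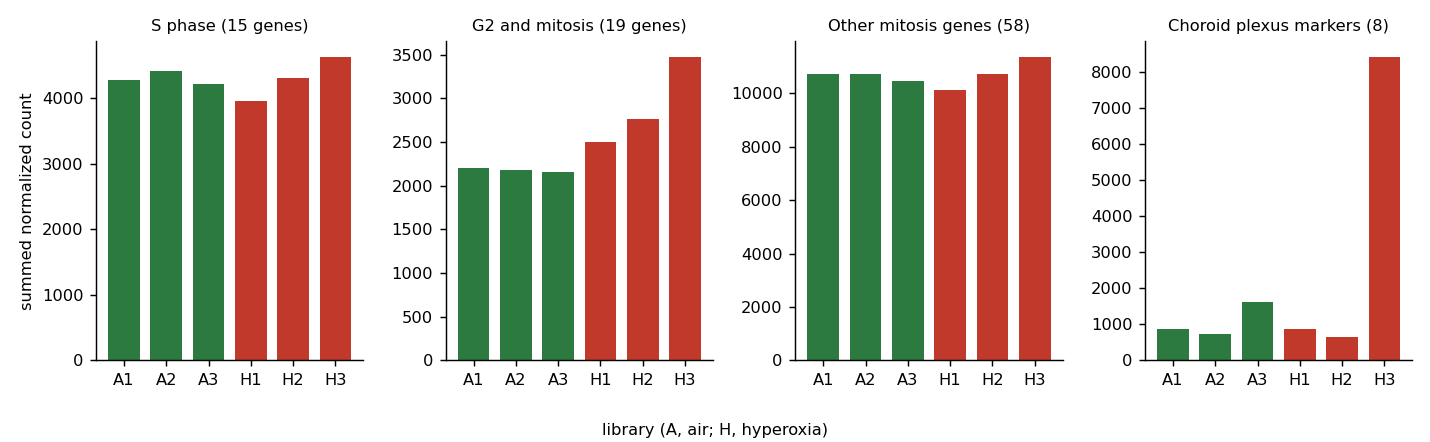
Summed normalized count (vertical axis, from 0) in each library (A for air, H for hyperoxia, 1 bar each) of the 15 S phase members, the 19 mitotic members, 58 other mitosis genes and 8 choroid plexus markers. The mitotic sum was 2154 to 2209 in air and 2498 to 3480 in hyperoxia, while the S phase sum of 4213 to 4412 in air overlapped the 3948 to 4631 in hyperoxia.

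Summed over each stage, the libraries differed in the same places. The mitotic members together came to 2209, 2182 and 2154 in air and to 2498, 2761 and 3480 in hyperoxia. The S phase members came to 4278, 4412 and 4213 in air and 3948, 4308 and 4631 in hyperoxia, and the G1 cyclins to 6050, 5839 and 6220 in air and 5893, 6163 and 7263 in hyperoxia. Hyperoxia library 3 was the highest library in each of the 3 sums, and the mitotic sums of hyperoxia libraries 1 and 2 were also above all air libraries. That same library held the high choroid plexus values, with a summed normalized count of 8420 over 8 genes against 646 to 1608 in the other libraries. Ttr alone was 7454 of the 8420. Of the 8 genes 1 (Aqp1) was called, and it was higher in every hyperoxia library, at 45.1, 34 and 63.7 against 12.3 to 17 in air. The part of the choroid plexus RNA in the members' levels was not tested, and the values without hyperoxia library 3 are given above.

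Members also differed by the length and the base composition of their transcripts. Over the 38 members, the log2 fold change and GC content had a Pearson r of −0.36 and a Spearman rho of −0.38, and the log2 fold change and the log2 of exon length had 0.29 and 0.27, as descriptions over genes that share the same 6 libraries. Within the 19 mitotic members these were −0.49 and −0.52 for GC and 0.47 and 0.53 for length. Within the 15 S phase members they were 0.07 and 0.11 for GC and −0.18 and −0.17 for length. The 6 called mitotic genes had a median GC content of 47.0% and a median exon length of 6777 bases, against 48.4% and 4217 bases for the 13 not called and 49.5% and 3991 bases for all genes tested. After each library's trend on length and GC was removed, the mitotic median was 0.35 in place of 0.51, with 16 of 19 above 0, and Mki67, Top2a, Birc5, Cdc20 and Aurkb were called.

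**Figure D5:**
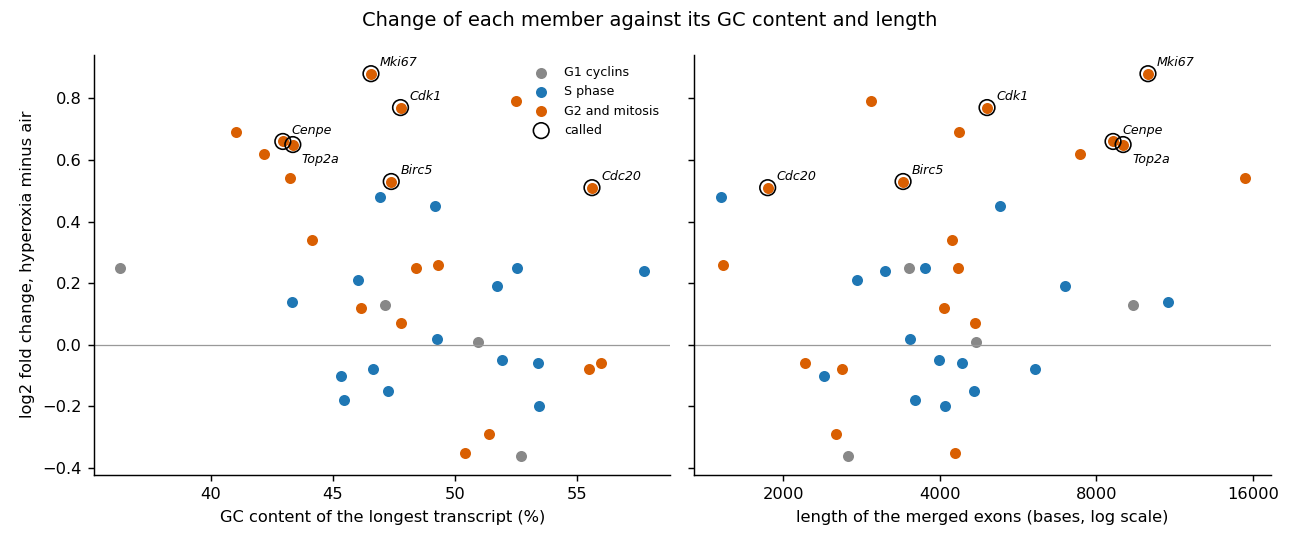
Log2 fold change of each member, hyperoxia minus air (vertical axis), against the GC content of its longest transcript (left, percent) and the length of its merged exons (right, bases, log scale), coloured by stage with called genes ringed. Cenpe and Top2a lie at low GC and long exons, whereas Cdc20 is called at high GC and short exons.

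Other genes of the same machinery, were taken from lists written by function. Among all tested genes 30.5% were called, 14.9% higher and 15.6% lower. Of 58 further mitosis genes, 11 were called higher and 2 lower (22.4% called), with a median log2 fold change of 0.28. Their sums overlapped, at 10458 to 10710 in air and 10129 to 11367 in hyperoxia. Hmmr, which encodes a spindle assembly protein, read 54.6, 49.9 and 52.4 in air and 116.7, 88.3 and 109.1 in hyperoxia and rose by 0.98 (SE 0.17, adjusted p = 0.0029 by limma). Knl1, the scaffold of the outer kinetochore, read 24.5, 23.4 and 22.6 in air and 38, 48.7 and 68.5 in hyperoxia and rose by 1.07 (SE 0.25, adjusted p = 0.012 by limma). In both genes the air libraries were nearly even and the hyperoxia libraries all higher. Ect2, a regulator of cytokinesis, rose by 0.75 (limma adjusted p = 0.013). The 2 genes called lower were Fam83d, a spindle protein, at −0.74 (limma adjusted p = 0.027), and Pttg1, which encodes securin, at −0.33 (limma adjusted p = 0.04961). Hmmr was called under all 16 alternatives. Knl1 lost its call with the length and GC trend removed (adjusted p = 0.057) and Ect2 without air library 2 (0.058). Fam83d lost it without air library 1 (0.069), 2 (0.11) or 3 (0.071) or hyperoxia library 1 (0.091). Pttg1 was called under 7 of 16 alternatives, and with 1 library left out only without hyperoxia library 2 (0.0018).

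Of 42 further replication genes, 2 were called higher and 2 lower (9.52% called, against 30.5% of all tested genes), with a median of 0.07. Dbf4, the activator of the CDC7 kinase that fires origins, read 88.5, 75.3 and 86.2 in air and 122, 113.2 and 136.1 in hyperoxia and rose by 0.56 (SE 0.15, adjusted p = 0.017 by limma). Tipin, a part of the fork protection complex, rose by 0.31 (limma adjusted p = 0.044). Those called lower were Dut, which clears dUTP, at −0.32 (limma adjusted p = 0.029) and Pola2, a subunit of the polymerase that starts each strand, at −0.33 (limma adjusted p = 0.031). Each of the 4 calls was lost in some fits with 1 library left out. Dbf4 lost its call without air library 2 (adjusted p = 0.078) or hyperoxia library 1 (0.054) or 3 (0.052), and Tipin held only without hyperoxia library 3. Dut and Pola2 lost theirs without air library 1 (0.061 and 0.10), 2 (0.13 and 0.12) or 3 (0.080 and 0.068) or hyperoxia library 1 (0.11 for both).

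Regulators that stand upstream were counted beside the 30.5% called among all tested genes. Of 11 tested G1 kinases and CDK inhibitors, 2 were called (18.2%), both higher. Cdkn1a encodes p21, an inhibitor of cyclin-dependent kinases induced by p53, and read 654.5, 664.5 and 569.8 in air and 832.7, 1003 and 793.4 in hyperoxia, with the groups apart (log2 rise 0.47, SE 0.11, adjusted p = 0.011 by limma). The call of Cdkn1a held under all 16 alternatives. Cdk6, a partner of D-type cyclins, rose by 0.42 (limma adjusted p = 0.025), but by 0.07 with the length and GC trend removed (adjusted p = 0.63), and lost its call without air library 1 (0.060), 2 (0.10) or 3 (0.071) or hyperoxia library 3 (0.060). The other inhibitors of that family were not called, with Cdkn1b at −0.12 (limma adjusted p = 0.22) and Cdkn1c at −0.03 (0.92). With the length and GC trend removed, Cdkn1b was called lower, at −0.254 (limma adjusted p = 0.0058).

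Among 22 genes of E2F factors, pocket proteins and the DREAM complex, 2 were called higher and 2 lower (18.2% called, against 30.5% of all tested genes). The pocket proteins Rb1 (0.49, limma adjusted p = 0.0041) and Rbl1 (0.57, 0.017) rose. E2f4, the repressive E2F of the DREAM complex, read 1937, 1753 and 1726 in air and 1133, 1313 and 1013 in hyperoxia and fell by 0.65 (SE 0.10, adjusted p = 0.0020 by limma), and Lin37, another DREAM subunit, fell by 0.62 (limma adjusted p = 0.0023). Rb1, E2f4 and Lin37 were called under all 16 alternatives, and Rbl1 lost its call without air library 2 (0.067) or 3 (0.063) or hyperoxia library 1 (0.063). The activators were not called with all 6 libraries. E2f1 read 534.9, 418.2 and 392.2 in air and 401.3, 344.2 and 331.1 in hyperoxia (−0.31, limma adjusted p = 0.10), and Foxm1, an activator of mitotic genes, read 132.8, 155.7 and 147.8 in air and 181.2, 177.7 and 200.8 in hyperoxia, all above air (0.36, limma adjusted p = 0.052), and was called under 4 of 16 alternatives, which were limma without hyperoxia library 2 (0.034), a mean of at least 50 (0.045), limma without the trend (0.043) and removal of the length and GC trend (0.049). Mybl2, which turns the same complex to activation, had 0.28 (limma adjusted p = 0.32).

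Markers of the cell types that can divide in this tissue were counted beside the 30.5% called among all tested genes, and their part in the members' levels was not tested. Of 12 genes of neural stem cells and intermediate progenitors, 3 were called higher and 3 lower (50%). Fabp7, of radial glia-like cells and astrocytes, read 1173, 1177 and 916.8 in air and 2114, 3236 and 2354 in hyperoxia (log2 rise 1.22, limma adjusted p = 9.8e-04). Eomes, the factor of intermediate progenitors, read 240.1, 215.7 and 233 in air and 99.9, 111 and 193 in hyperoxia (log2 fold change −0.83, limma adjusted p = 0.019), a call lost without air library 1 (0.079), 2 (0.056) or 3 (0.062) or hyperoxia library 1 (0.072). As for every gene here, the direction rests on the column names. Eomes is among the mRNAs for which the study's own text gives the opposite direction. The list thus held markers that moved in opposite directions, and its summed normalized count was 7021 to 7362 in air and 8382 to 11023 in hyperoxia. Fabp7 and Vim, the latter at 1413 to 1572 in air and 1973 to 2925 in hyperoxia, made up most of the difference between these sums. The median log2 fold change of the 12 genes was 0.0.

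Of 11 genes of oligodendrocyte precursors, 4 were called higher and 1 lower (45.5%), with Pdgfra, the receptor that marks these cells, at 3119, 3084 and 3297 in air and 4783, 4624 and 4805 in hyperoxia (log2 rise 0.58, limma adjusted p = 5.9e-04). The sums of this list overlapped, at 32659 to 37176 in air and 32836 to 37651 in hyperoxia. Endothelial genes had 6 called higher and 1 lower of 10 (70%), and their sums did not overlap, at 9051 to 9437 in air and 10745 to 12156 in hyperoxia. Of 12 microglial genes 2 were called (16.7%), both higher, with sums of 15032 to 15446 in air and 15340 to 17487 in hyperoxia. Astrocyte genes, 4 higher and 2 lower of 10 (60%), summed to 209248 to 219633 in air and 246552 to 264201 in hyperoxia. Slc1a2 was the largest part of these sums, at 98744 to 110995 in air and 132433 to 163351 in hyperoxia. The median log2 fold change of the 10 genes was 0.05.

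Genes of immature and mature neurons were counted for comparison, beside the 30.5% called among all tested genes (14.9% higher and 15.6% lower). Of 12 genes of immature granule cells 3 were called higher and 2 lower (41.7%), with overlapping sums of 57598 to 62790 in air and 60783 to 68822 in hyperoxia. The 7 genes of mature dentate granule cells had 5 called lower (71.4%), and the 9 genes of CA1 and CA3 pyramidal cells had 3 called lower (33.3%), with no gene of either list higher at an unadjusted p under 0.05 in limma. In their sums, every hyperoxia library lay below every air library, at 13305 to 18387 against 20246 to 20623 for dentate granule cells and at 19338 to 23397 against 24863 to 26802 for pyramidal cells.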

How the data were processed

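RNA of the left hippocampus of 3 pups kept in air and 3 kept in hyperoxia was sequenced as polyA-selected mRNA. The submitters' processing notes name FastQC, STAR 2.5.3a, HTSeq and DESeq2 without their roles. Build, annotation and strand setting of the counting were not given in the sources used here. In the deposited table the signal is a normalized count, which the authors made by dividing read counts by 1 size factor per library. A second table of the authors' own comparison (mean, log2 fold change, standard error, Wald statistic, p-value and adjusted p-value) was not used. In every library 100% of the deposited values lay within 0.01 of whole multiples of the value of 1 read, so reads were recovered for the count tests.

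Genes with a mean of at least 10 were tested as log2 of the value plus a pseudocount of 1 in limma 3.58.1 under R 4.3.3, two-sided, with its trended prior variance and Benjamini-Hochberg adjustment over 17778 genes. Fold changes on this scale understate the change of low genes. An exact permutation test of 3 against 3 libraries cannot give a p below 0.1. The labels do not say whether pups shared a litter, so an effect of litter cannot be told apart from the exposure. The p-values set the difference between groups against the spread of these 6 libraries within groups. Replicate pairs differed by more than sampling noise (chi-square per gene from 6.54 to 47.21). The air pairs were at 6.54 to 10.52. Hyperoxia library 2 was at 31.44 with library 1 and 47.21 with library 3, against 15.12 for hyperoxia libraries 1 and 3. Alternatives were edgeR 4.0.16 (quasi-likelihood), DESeq2 1.42.0, TMM scaling, quantile normalization, a pseudocount of 0.5 or 5, a minimum mean of 50 or none, limma without a trended prior, fits that each left out 1 library, and removal of each library's trend on length and GC (mgcv 1.9.3, 17735 genes). The test was tried on simulated data first. Python 3.11.15, pandas 2.3.3, numpy 2.4.6 and matplotlib 3.10.9 were used.

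Positions and lengths came from GENCODE M21 on GRCm38, which held 99.7% of the gene identifiers. The exons of 12 members overlap those of another gene, and 4 members have named pseudogene copies. Promoter windows came from RefSeq (GRCm38.p6), with 28 of 38 members matched by symbol. All members are named, as are up to 3 called genes with the smallest adjusted p per direction of each pathway list, Cdkn1a, Cdkn1b, Cdkn1c, E2f1, Foxm1 and Mybl2, and at most 2 markers per cell type. Vim is named in addition, as a large part of the sum of its list. Promoters are printed for the 3 members of S phase and of mitosis with the smallest adjusted p that the promoter table holds. Members and lists were chosen with earlier results of these data known.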

Additional observations from a re-analysis of the deposited data

How the results depend on the processing

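Counts of called genes changed with the libraries used, in fits that also had less power. With each library left out in turn, the genes called went from 3048 to 7756 (5425 with all 6 libraries), members called higher from 3 to 8 (6), members called lower from 0 to 1 (0), S phase members from 0 to 0 (0), mitotic members from 3 to 7 (6), G1 cyclins from 0 to 2 (0), genes of the other cell cycle lists from 7 to 34 (23) and cell type genes from 25 to 50 (40). Under quantile normalization 1 member was called lower and 1 G1 cyclin was called (Ccne1 in both), while 4 mitotic members were called with quantile normalization and 4 with no filter on low values. Of the values of called members under the alternatives, 71 kept their call and 25 lost it with the direction kept; of those of members not called, 474 stayed so, 16 passed and 19 changed sign. Cdc45 was −0.029 under quantile normalization. With the length and GC trend removed, Ccnd2 was −0.055, Mcm7 0.011, Rrm1 −0.039, Ube2c 0.046, Plk1 0.071 and Tpx2 −0.001. With 1 library left out, the log2 fold change ran from −0.062 to 0.10 for Ccnd1, from −0.25 to 0.051 for Ube2c, from −0.21 to 0.083 for Mcm5, from −0.16 to 0.043 for Tyms, from −0.02 to 0.07 for Cdc45, from −0.03 to 0.18 for Tpx2 and from −0.308 to 0.141 for Cdkn1c. Cdkn1c was also 0.015 with edgeR, 0.025 with DESeq2 and 0.121 with the length and GC trend removed. The causes of these changes were not tested. No paired analysis was possible because the sample labels number the animals without a number shared by the groups, and the numbers 1 to 3 that the columns of both groups carry are not tied to animals. Members with 21 to 100 reads per library carry most counting error, and whether reads of overlapping genes or pseudogene copies were split could not be read from the files.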
